A study of Gallus gallus with 2 samples.

Results

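The genes described here encode the machinery by which a neuron stores and releases transmitters and peptides. They are SNAP25, STX1A and VAMP2, which make up the neuronal SNARE complex, the synaptotagmins SYT1, SYT4 and SYT11, and the granins and granin-like proteins SCG2, SCG3 and CHGB. The genes were chosen with earlier results of these data known, and their probe sets were found by gene symbol in the platform's annotation. These 9 genes are represented by 24 probe sets, of 13008 genes on the array in all. Their values come from Affymetrix chicken arrays hybridised with biotin-labelled RNA of GFP-positive cells, sorted from dissociated neural tubes of chicken embryos. In the knockdown group, 1 sample, the neural tube had been electroporated with pSuper-neo-GFP-Sox4-shRNA and pSuper-neo-GFP-Sox11-shRNA, and in the control group, 1 sample, with pSuper-neo-GFP. Both groups thus carried a GFP plasmid and went through electroporation on both sides at Hamburger-Hamilton stage (HH) 9 and cell sorting at HH11. The labels also give 2 days of incubation between these stages, an interval that does not obviously go with them, so the age of the cells is uncertain. Strain, and how many embryos went into a sample, are not given in the sources used here.

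In transmitter release, a vesicle SNARE (VAMP2, also called synaptobrevin) pairs with 2 SNARE proteins of the plasma membrane (syntaxin, STX1A, and SNAP25), and the helical bundle that they form draws both membranes together. SYT1 is the calcium sensor that triggers this fusion, whereas SYT4 and SYT11 belong to a synaptotagmin branch with altered calcium binding, described in rodents on dense core vesicles and in endocytosis. Granins are acidic proteins of the dense core vesicle, the organelle that carries peptides and hormones, and many of these genes begin to be expressed as a neuron differentiates, before synapses form. Sox4 and Sox11 are SoxC transcription factors of newly formed neurons, and by its title the series asks which genes they regulate during neurogenesis in the spinal cord.

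With 1 array per group there is no replicate spread and no test was made. "Lower" and "higher" below describe 2 arrays, and their number limits the precision of every value. A signal is the deposited linear intensity of a probe set, and a log2 ratio is knockdown over control. Signals of different probe sets are not read as relative amounts of RNA. They are used to choose a gene's probe set and to filter and group genes. Sums of signal over a marker list are weighted towards its brightest probe sets. SOX4 had a signal of 3157 in the knockdown and 6604 in the control, and SOX11 had 2790 and 4552, so both targeted genes were lower in the knockdown by 2.09-fold and 1.63-fold. Background, the 95th percentile of 687 viral probe sets, was 65.8 on the knockdown array and 63.6 on the control array, and the median chicken probe set had a signal of 134 and 113. Control probe sets at the 3′ end of actin gave 1.85 times the signal of those at its 5′ end on the knockdown array, and 5.45 times on the control array. For EF1A these values were 1.5 and 2.92, and for GAPDH, where the arrays were more alike, 1.05 and 1.25. The part of this difference in the ratios below was not tested.

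A gene was taken as measured where its highest probe set had a mean log2 signal at or above the median of chicken probe sets, a signal of 118. This held for 7 of the 9 genes, all but VAMP2 and CHGB, and for 9303 of all genes. Of the 7, 6 had lower signal in the knockdown, and SCG3 was higher. Their median log2 ratio was -0.43, against 0.02 over all measured genes. At least 1.5-fold lower were 2 of the 7, SNAP25 and STX1A, against 5.71% of all measured genes, and 0 were at least 2-fold lower, against 1.06%. None of the 7 was 1.5-fold higher, against 11.4% of all measured genes, or 2-fold higher, against 3.64%. Any lower signal was found in 47.9% of measured genes. The 9 genes were chosen with earlier results of these data known, so these contrasts with all genes are not independent support. Because the sample is a mixed sorted population, fewer cells of a type and less RNA per cell cannot be told apart in any of these values.

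**Figure D1:**
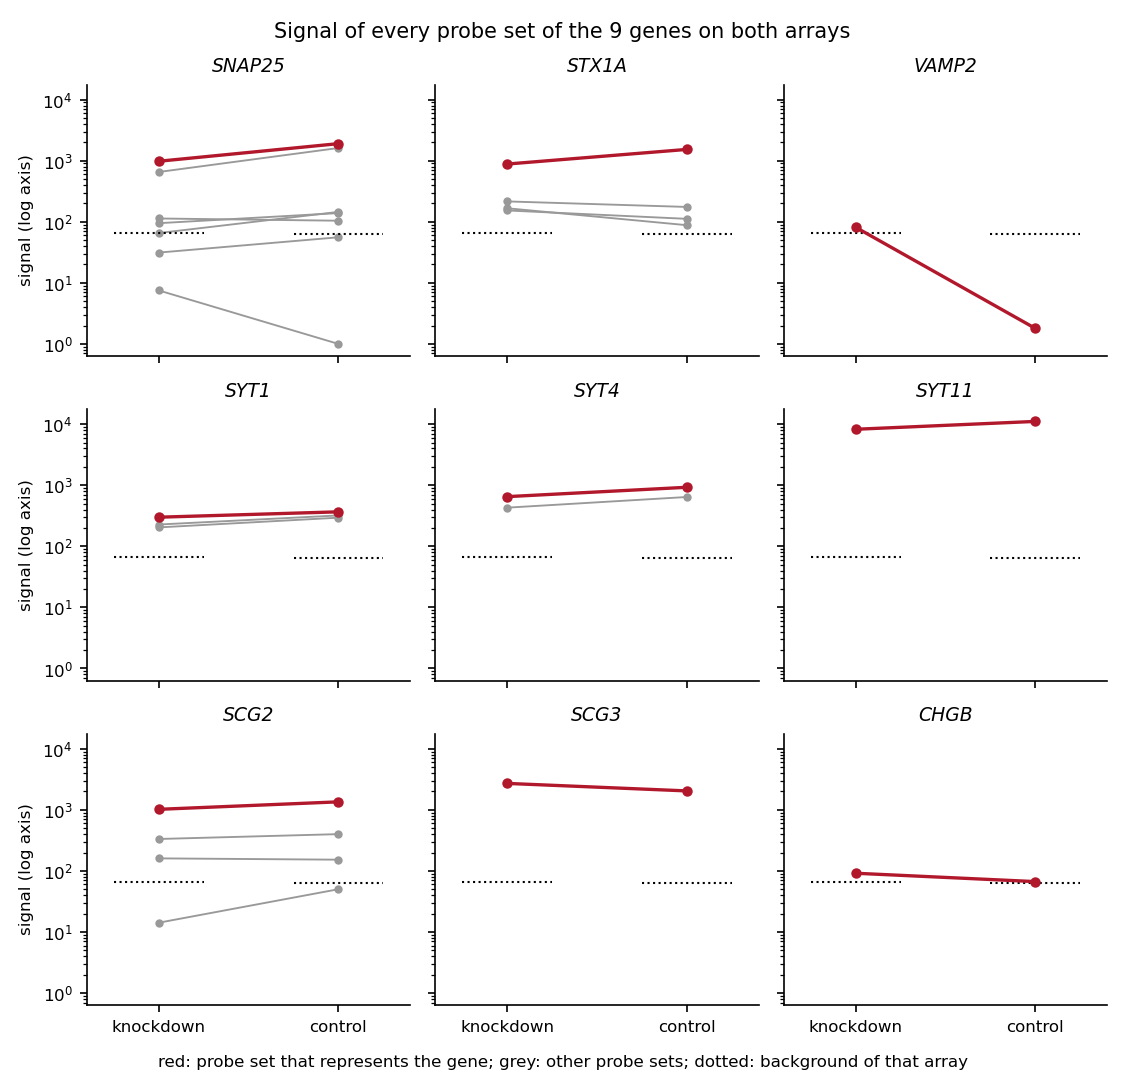
Signal (log axis) of each of the 24 probe sets on the knockdown array (left point) and the control array (right point), 1 panel per gene, with the probe set that represents the gene in red, the others in grey and each array's background dotted. Red lines climb towards the control for SNAP25, STX1A, SYT1, SYT4, SYT11 and SCG2, and SCG3 is higher in the knockdown (2704 and 2038).

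The SNARE genes gave the largest differences and the least agreement between probe sets. SNAP25, which contributes 2 of the 4 helices of the SNARE bundle, had a signal of 979 in the knockdown and 1899 in the control for its highest probe set (log2 ratio -0.96, 1.94-fold lower). Of the 9303 measured genes, 115 had a lower log2 ratio. Its other probe set above the filter had 653 in the knockdown and 1612 in the control (log2 ratio -1.30, 2.47-fold lower). Both are therefore lower by more than the usual disagreement between probe sets of a gene at this signal, an SD of 0.46 on the log2 scale over the array. They were designed from the same source sequence, as was a further, dimmer probe set that gave 94.8 and 139 (log2 ratio -0.55), so they are not independent readings. The probe set designed from the reference mRNA of SNAP25, at a signal just under the filter, had 113 in the knockdown and 104 in the control (log2 ratio 0.12), and so did not show the difference. Of the remaining 3, 1 lay below background in the knockdown alone (65.4 and 145, at least 2.20-fold lower), and 2 lay below background on both arrays, which gives no fold.

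STX1A, the syntaxin of the presynaptic membrane, had a signal of 881 in the knockdown and 1528 in the control for its highest probe set (log2 ratio -0.79, 1.73-fold lower). Its other 3 probe sets went the other way. They had 215 in the knockdown and 175 in the control (log2 ratio 0.30), 153 and 112 (0.46), and 166 and 87.9 (0.92, 1.89-fold higher). The platform gives these 3 a different Entrez gene number from that of the highest probe set, and the RefSeq gene table of the assembly GRCg7b lists only the number of that probe set as STX1A. The direction of STX1A thus rests on which probe set is read.

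VAMP2, the vesicle SNARE, could not be measured in the control. Its single probe set had a signal of 81.1 in the knockdown, and 1.8, under background, in the control. Set against background this is at least 1.28-fold higher in the knockdown, a signal too close to background to place VAMP2 with or apart from its partners.

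The synaptotagmins had the most uniform values. SYT1, the calcium sensor of fast release, had 300 in the knockdown and 367 in the control (log2 ratio -0.29, 1.22-fold lower), and its other probe sets had 228 and 320 (-0.49) and 204 and 295 (-0.53). All 3 were lower, with a mean log2 ratio of -0.44 and an SD between probe sets of 0.13. The first 2 of these probe sets were designed from the same source sequence, so the 3 are not independent readings. SYT4, a synaptotagmin of peptide vesicles in rodents, had 651 in the knockdown and 926 in the control (log2 ratio -0.51, 1.42-fold lower), and 430 and 642 with its second probe set (-0.58). SYT11 had 8245 in the knockdown and 11084 in the control (log2 ratio -0.43, 1.34-fold lower) with a single probe set. None of these 3 genes was 1.5-fold lower. Set against the usual disagreement between probe sets of a gene at that signal, the log2 ratio was 0.61 times that SD for SYT1, 1.05 times for SYT4 and 1.09 times for SYT11. Lower log2 ratios than theirs were found in 18.1% of measured genes for SYT1, 7.56% for SYT4 and 10.7% for SYT11.

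The granins did not share a direction. SCG2, or secretogranin II, the precursor of the peptide secretoneurin, had 1019 in the knockdown and 1350 in the control (log2 ratio -0.41, 1.33-fold lower). A second probe set gave 333 and 400 (-0.26) and another 160 and 153 (0.07), while the last lay below background on both arrays. All but the second were designed from the same source sequence, so the probe sets of SCG2 are not independent readings. SCG3, or secretogranin III, which binds other granins to the vesicle membrane, was higher, with 2704 in the knockdown and 2038 in the control (log2 ratio 0.41, 1.33-fold higher), and 81.4% of measured genes had a lower log2 ratio. CHGB, or chromogranin B, had 91.5 in the knockdown and 66.8 in the control (log2 ratio 0.45). That is above background on both arrays but below the filter, and the control value is within a few units of background. SCG2, SCG3 and CHGB each differed by less than 1.5-fold.

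**Figure D2:**
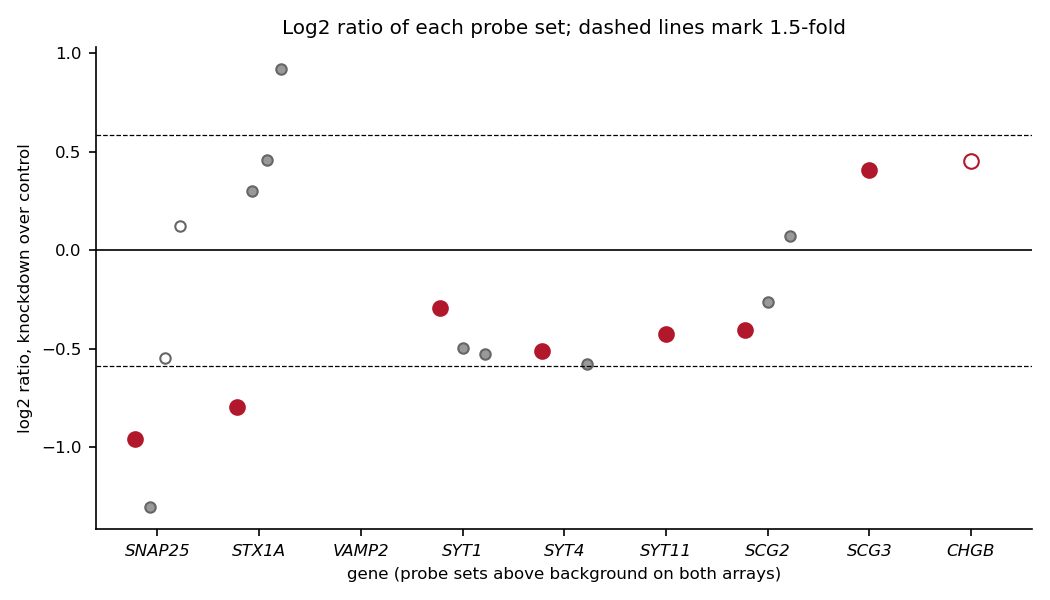
Log2 ratio (knockdown over control) of the 19 probe sets of the 9 genes that lay above background on both arrays, with the probe set that represents a gene in red, others in grey, those under the signal filter open and 1.5-fold as dashed lines. SYT1 and SYT4 have all probe sets below 0, STX1A has 1 below and 3 above, and VAMP2 has none to show.

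Over all probe sets, 12 of the 19 above background on both arrays were lower in the knockdown and 7 higher. Of all such chicken probe sets, with or without a gene symbol, 43.5% were lower. Of the 7 higher ones, 3 are those of STX1A with the other gene number. The 16 that passed the signal filter split into 11 lower and 5 higher, against 44.4% lower among all chicken probe sets that passed, with or without a symbol. Probe sets of a gene share the gene's RNA, and some share a source sequence, so these counts are not of independent values.

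Log2 ratios drifted with signal over the array, and the members were therefore also set beside genes of like signal. Measured genes were put into 10 equal groups by mean signal. In the group that holds SNAP25, STX1A and SCG2, the median log2 ratio was 0.0044, and of its 931 genes 9 had a lower ratio than SNAP25, 20 a lower one than STX1A and 113 a lower one than SCG2. For SYT1, in a dimmer group with a median of 0.14, 164 of 930 genes were lower, and for SYT4 71 of 930. For SYT11, in a brighter group with a median of -0.06, 103 of 930 were lower, and for SCG3 820 of 930. SNAP25 and the highest probe set of STX1A were thus near the low end among genes of like signal too, and SCG3 in the upper part. The other 3 probe sets of STX1A were higher in the knockdown, so its place rests on the probe set read.

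**Figure D3:**
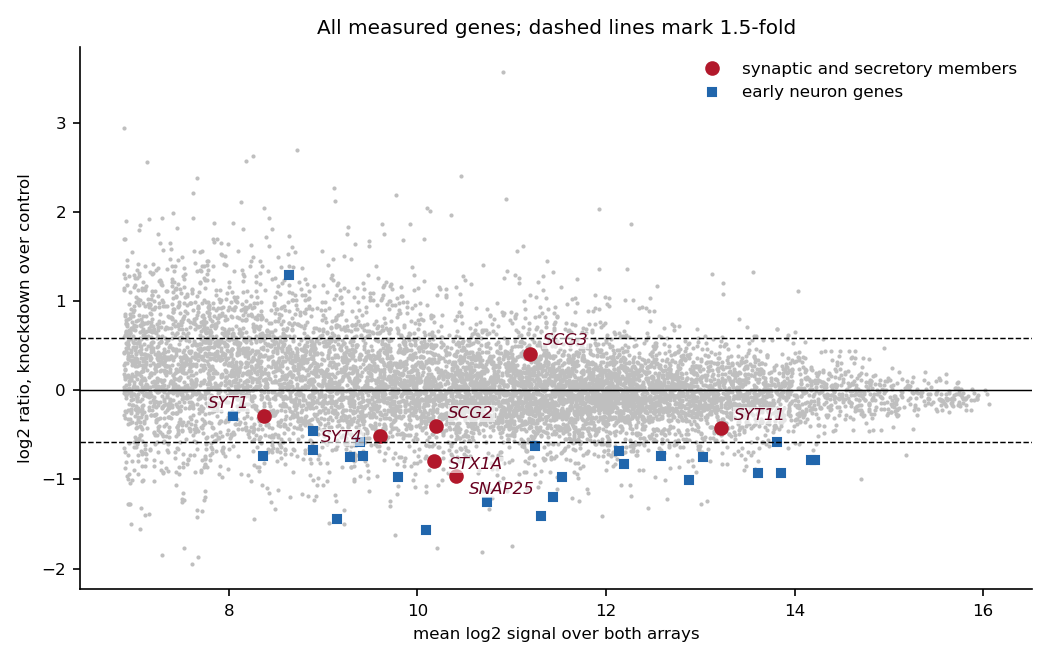
Log2 ratio (knockdown over control) against the mean log2 signal of both arrays for the 9303 measured genes (grey), with the 7 measured members in red, 26 early neuron genes in blue and 1.5-fold as dashed lines. The members lie between -0.96 and 0.41, and 25 of the 26 early neuron genes lie below 0.

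Genes of early neuron differentiation were lower by more. Of 26 measured genes of this list, 21 (80.8%) were lower by 1.5-fold or more, against 5.71% of all measured genes. Of the 21, 6 were lower by 2-fold or more, where 1.06% of all measured genes were, and 1 of the 26 was 2-fold higher, against 3.64%. The higher one was NRCAM, with 624.6 in the knockdown and 255.5 in the control (log2 ratio 1.29, but 0.17 with another probe set). The list was chosen with earlier results of these data known, so its low values are not independent support. The median log2 ratio of the list was -0.77. Among them, TUBB3, the neuronal tubulin, had 634 in the knockdown and 1240 in the control (log2 ratio -0.97), ELAVL4, an RNA-binding protein, 10781 and 20538 (-0.93), and STMN2, a microtubule regulator, 4746 and 7934 (-0.74, and -0.47 with another probe set). The log2 ratios of SNAP25 and of the highest probe set of STX1A lay below this median, and those of SYT1, SYT4, SYT11, SCG2 and SCG3 above it. Whether the members differ from this list was not tested.

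The wider SNARE and fusion list, 28 measured genes without the members, held 3 genes (10.7%) at least 1.5-fold lower, against 5.71% of all measured genes. It held 5 (17.9%) at least 1.5-fold higher, against 11.4%, and its median log2 ratio was -0.21. NSF, the ATPase that takes SNARE complexes apart after fusion, had 2036 in the knockdown and 3999 in the control (log2 ratio -0.97, 1.96-fold lower). NAPB, a SNAP adaptor of NSF found mainly in the mammalian brain, had 451 and 914 (-1.02) and, with its other probe set, 108 and 190 (-0.81), while its ubiquitous paralogue NAPA had 857 in the knockdown and 378 in the control (1.18, 2.27-fold higher). The general counterparts of the members were also read. SNAP23, which serves in place of SNAP25 outside neurons, had 3454 in the knockdown and 2785 in the control (0.31), and SNAP29, of intracellular fusion, had 4887 and 5589 (-0.19). VAMP3, the widely expressed counterpart of VAMP2, had 6895 in the knockdown and 4436 in the control (0.64, 1.55-fold higher). The SNAREs YKT6, of the Golgi (402 and 151, log2 ratio 1.41), and STX12, of endosomes (315 and 137, 1.20), were also at least 2-fold higher.

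Among 7 other measured synaptotagmins and synaptotagmin-like genes, 3 (42.9%) were lower and 4 higher, where 47.9% of all measured genes were lower. In each direction 1 (14.3%) passed 1.5-fold, against 5.71% of all measured genes lower and 11.4% higher. The median log2 ratio was 0.02. SYT16 had 389 in the knockdown and 735 in the control (-0.92), and SYT9 had 194 and 107 (0.85).

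Of 23 measured genes of the vesicle membrane list, which includes cargo transporters and other vesicle-associated proteins, 7 (30.4%) were lower by 1.5-fold or more. This compares with 5.71% of all measured genes. Of the 7, 2 were lower by 2-fold or more, where 1.06% of all measured genes were. Higher by 1.5-fold or more were 2 (8.7%), against 11.4%. The list's median log2 ratio was -0.25. The lowest were SV2B, a vesicle glycoprotein (320 in the knockdown and 896 in the control, log2 ratio -1.48), and SLC32A1, which loads GABA and glycine into vesicles (294 and 659, -1.17). SLC18A3, the vesicular acetylcholine transporter of motor neurons, had 1652 in the knockdown and 3116 in the control (-0.92), and SV2C had 398 and 701 (-0.82). SYP, or synaptophysin, an abundant vesicle protein, had 1227 in the knockdown and 1464 in the control (-0.25), a difference of the size found for SYT1.

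The 13 measured active zone genes had 2 (15.4%) at least 1.5-fold lower, against 5.71% of all measured genes, and 2 (15.4%) higher, against 11.4%. Their median log2 ratio was -0.18. NRXN3, a neurexin, had 292 in the knockdown and 516 in the control (-0.82). PPFIA2, a liprin, had 138 and 243 (-0.82), but 0.07 and -0.65 with dimmer probe sets under the filter. The scaffold genes ERC1 (196 and 103, 0.93) and RIMS2 (279 and 182, 0.61, but 0.10 with another probe set) were higher. Genes of vesicle endocytosis had a median of -0.11 over 25 measured genes. At least 1.5-fold lower was 1 (4%) and 1 (4%) was higher, both below those shares of all measured genes. The lower one was DNM3, a dynamin (335 in the knockdown and 646 in the control, -0.95, but -0.03 with another probe set). The higher one was SYNJ1, a lipid phosphatase (447 and 266, 0.75). CLTB, a clathrin light chain, had a log2 ratio of -0.46, and AP2M1, an adaptor subunit, of -0.56 with its highest probe set but 0.95 with another.

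The dense core vesicle list, 17 measured genes without the members, had a median log2 ratio of 0.0011. In it 1 gene (5.88%) was at least 1.5-fold lower, against 5.71% of all measured genes, and 0 were higher, against 11.4%. That 1 was CHGA, or chromogranin A, the closest relative of CHGB by name and function, with 2191 in the knockdown and 5180 in the control (log2 ratio -1.24, 2.36-fold lower). Its log2 ratio was further from 0 than that of the highest probe set of any member measured. Its other probe set above the filter did not show the difference, with 1411 in the knockdown and 1472 in the control (-0.06). SCG5, a chaperone of the prohormone convertase PCSK2, had 1123 in the knockdown and 1518 in the control (-0.43), and 111 and 221 (-0.99) with another probe set. CADPS, a priming factor of dense core vesicles, had 1100 in the knockdown and 1573 in the control (-0.52), CCDC186 854 and 1204 (-0.49), and VPS53, of a tethering complex, 1606 and 2172 (-0.44), though probe sets of CADPS and VPS53 differed in direction. CPE, the carboxypeptidase that trims prohormones, lay under the filter, with 86.4 and 92.5.

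**Figure D4:**
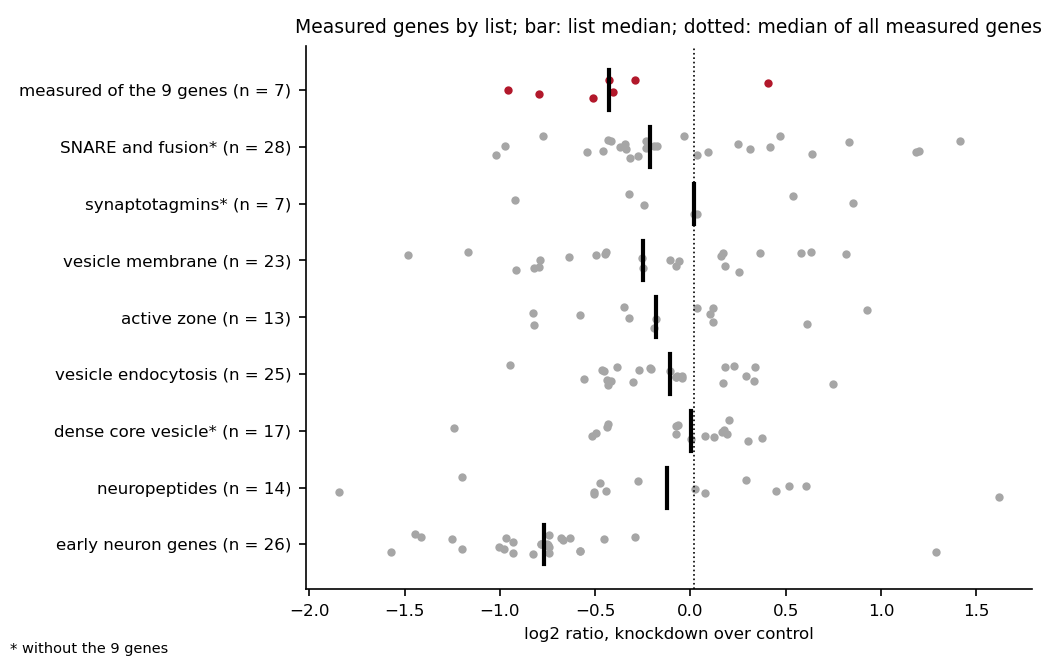
Log2 ratio (knockdown over control) of each measured gene, by list, with a bar at the list's median and a dotted line at the median of all measured genes (0.02). The 7 measured members have a median of -0.43, below those of the 7 vesicle, secretory and neuropeptide lists (-0.25 to 0.02) and above that of the early neuron genes (-0.77).

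Across the 127 measured vesicle and secretory genes of these lists and of the neuropeptide list, the members left out, 75 (59.1%) were lower in the knockdown, against 47.9% of all measured genes. The other 52 were higher, which 52.1% of all measured genes were. Past 1.5-fold, 17 (13.4%) were lower, against 5.71%, and 13 (10.2%) were higher, against 11.4%. The median log2 ratio was -0.11. These lists were likewise chosen with earlier results of these data known, so their counts are not independent support.

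Marker genes of cell types also differed between the arrays, where 5.71% of all measured genes were at least 1.5-fold lower and 11.4% higher. The 5 measured marker genes of neurons were all at least 1.5-fold lower. The summed signal of the 6 on the array was 36780 in the knockdown and 64879 in the control. All 6 are also in the early neuron list above, so they are not a separate observation. Of 6 neural progenitor genes, 0 were 1.5-fold lower and 1 was higher, SOX2 (2675 and 1581), with summed signals of 122690 and 131997, and all 6 lay above background on both arrays. Of 5 measured crest, autonomic and sensory lineage genes, 1 was 1.5-fold lower and 0 higher, with summed signals of 7397 and 9405 over 8 genes. TH, the enzyme that starts catecholamine synthesis in sympathetic and adrenal cells, which are rich in granins, was below background on both arrays. Most measured genes on the lists for blood, muscle, endothelium, surface ectoderm, and notochord and endoderm went the other way. The exceptions were MYOD1, TFAP2A, CLDN4 and FOXA2, which were lower in the knockdown. Whether genes on these lists, such as SHH, were also expressed within the neural tube was not tested. At least 1.5-fold higher were 6 of 7 measured blood genes (summed signal 71945 in the knockdown and 31066 in the control over 8 genes), 9 of 10 muscle genes (15321 and 2935), 5 of 7 endothelial genes (3194 and 1720), 3 of 6 surface ectoderm genes (7530 and 5294 over 8 genes) and 5 of 7 notochord and endoderm genes (5004 and 2996). Of all these markers, GAP43, GYPC and ESRP1 lay at or below background on both arrays, MYL2, GRHL3 and HAND2 in the control alone, and DBH in the knockdown alone. The marker lists, too, were chosen with earlier results of these data known. The part of these differences in the values of the 9 genes was not tested.

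**Figure D5:**
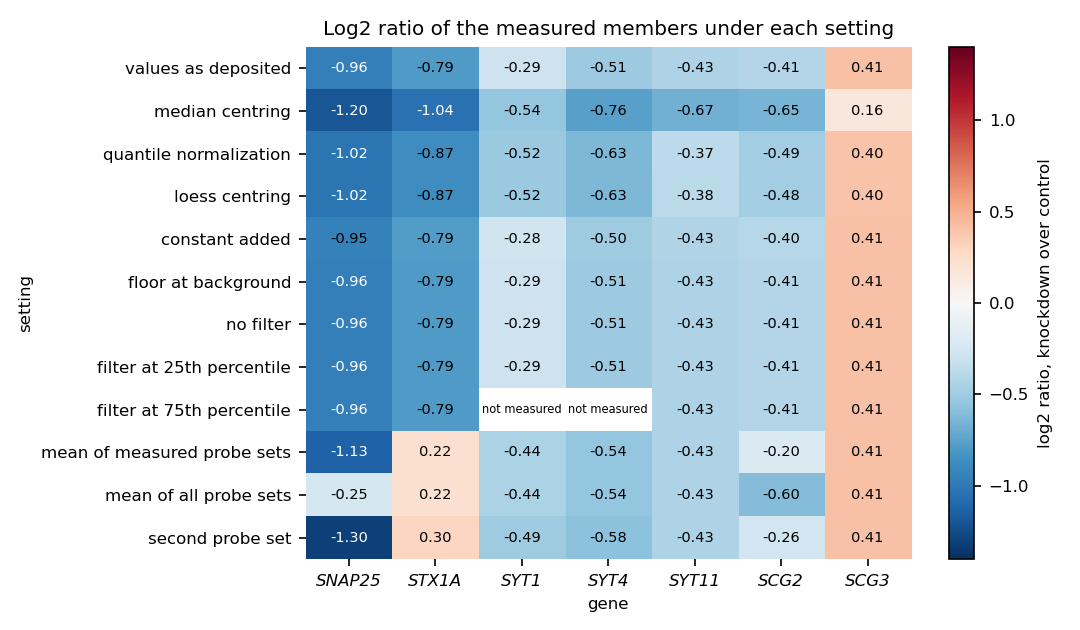
Log2 ratio (knockdown over control) of each measured member (columns) under the values as deposited and 11 alternative settings of scaling, low signals, filter and probe set (rows), with blue for lower and red for higher in the knockdown. STX1A changes sign with the 3 settings that use its other probe sets (0.22, 0.22 and 0.30), and SCG3 is above 0 throughout.

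The direction of the members held under every scaling of the arrays that was run. With each array set to the same median, the median of all measured genes fell by 0.25 on the log2 scale, and the members' median was -0.67, against -0.23 over all measured genes. This setting moves every log2 ratio by the same amount. Of the 7 measured members, 6 kept their sign under each of the 11 settings that gave them a value (SYT1 and SYT4 have none with the filter at the 75th percentile), and the exception was STX1A, which had a log2 ratio of 0.22 with the mean of its probe sets and 0.30 with its second probe set. SNAP25 ran from -1.30 with its second probe set to -0.25 with the mean of all its probe sets, those below background included.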

How the data were processed

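The authors deposited linear signal intensities of 38535 probe sets on 2 arrays, which came from MAS5 5.0 (per the submitters' processing notes); 100 ng of total RNA was labelled with a 3′ IVT kit per the labels' protocols. The intensity means without the outer 2% at each end were equal on both arrays (1000.3), so the deposited values had been scaled; detection calls were not used. Log2 was taken once. Of 37693 chicken probe sets, 27166 had 1 gene symbol, 177 several and 10350 none, and only the first kind was used for genes. The signal filter and the shares of chicken probe sets that were lower took chicken probe sets with or without a symbol. Platform symbols were updated by Entrez number with the RefSeq table of GRCg7b, from which no coordinates were taken; STX1A and SCG2 each have a number (3 and 4 probe sets) absent from it and kept the platform's symbol. A gene was represented by whichever of its probe sets had the highest mean log2 signal. The SD of log2 ratio between probe sets of a gene was pooled in 10 groups of signal over 3853 genes; it is no replicate error. With 1 sample per group, no test and no p-value was made, and calls are by fold (1.5 and 2).

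The members and gene lists (SNARE and fusion, synaptotagmins, vesicle membrane, active zone, endocytosis, dense core vesicle, neuropeptides, early neuron genes, and markers of other cells) were chosen with earlier results of these data known. The text names all members, up to 4 genes with the largest ratios in each list, and fixed paralogues, of which some were not analysed here, among them VAMP1, SYN1, SV2A and RAB3A. Of the genes other than the members that this rule gives, some are not described. Code for choosing a gene's probe set, for the SD between probe sets and for the curve fit of a scaling setting was tested on simulated data. Python 3.11.15, numpy 2.4.6 and pandas 2.3.3 were used. Promoter and protein sequences were not used here.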

Additional observations from a re-analysis of the deposited data

How the results depend on the processing

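Values with no replicate spread were set against the SD of 0.48 between probe sets of a gene. The members' median log2 ratio (-0.43) was below 0 under all 11 settings. The 7 genes are not replicates, so this SD gives no error for their median. The members' median was lowest with median centring (-0.67). That setting shifts every log2 ratio by the same amount, which this SD does not measure. The members' median minus that of all measured genes stayed at -0.45. With 1 member left out at a time the members' median ran from -0.47 to -0.42. The count of members at least 1.5-fold lower (2) was 5 with median centring, where 14.9% of all genes were called, 1 with the mean of measured probe sets (4.13% of all genes), 1 with the mean of all probe sets (5.87%), 1 with the second probe set (5.1%), and 0 at 2-fold (1.06%). STX1A changed sign in those probe set settings (0.22, 0.22 and 0.30), where its other probe sets enter by construction. Of the 9 list medians, members left out, 3 kept their sign under all settings: SNARE and fusion (-0.46 to -0.11), vesicle endocytosis (-0.35 to -0.03) and early neuron genes (-1.01 to -0.58). The other 6 took either sign. Among them were synaptotagmins (-0.23 to 0.30), vesicle membrane proteins (-0.49 to 0.07) and dense core vesicle genes (-0.25 to 0.21). The median of all measured genes also took either sign, from -0.23 with median centring to 0.14 with the mean of all probe sets. A sign here is thus read against 0 and not against all genes, and the cause of these changes was not tested. The filter at the 75th percentile left no value for SYT1, SYT4 and the synaptotagmin list. Dim probe sets limit VAMP2 and CHGB, which lie near background. No paired analysis was possible because each group has 1 sample.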

Other observations

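Neuropeptide genes, whose products travel in the dense core vesicles that granins build, were measured for 14 of 33 listed genes, with a median log2 ratio of -0.12. At least 2-fold lower were 2, against 1.06% of all measured genes, and 1 was at least 2-fold higher, against 3.64%. QRFP, a peptide of the RFamide family, had a signal of 82.9 in the knockdown and 298 in the control (log2 ratio -1.84). Its knockdown value is close to that array's background of 65.8, so the size of this ratio is uncertain. PNOC, the nociceptin precursor, had 264 and 606 (-1.20). CALCA, the gene of calcitonin and CGRP, was higher, with 3901 in the knockdown and 1270 in the control (1.62, and 0.60 and 0.71 with its other probe sets), and so was NPB, with 805 and 529 (0.61). The highest and the lowest of these genes thus lay further from 0 than the highest probe set of any measured member, in opposite directions. The lowest, QRFP, rests on a knockdown value near background.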
